A study of Mus musculus with 9 samples.

Results

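Actin and a set of proteins that control it were followed through bone marrow cells of mice in 3 groups. The set holds 10 genes: the cytoplasmic actins Actb and Actg1, the monomer binders Tmsb4x, Tmsb10 and Pfn1, the turnover factors Cfl1 and Coro1a, the branching subunit Arpc1b, and the GTPases Rac1 and Rac2. They were found by symbol among the 19454 genes of the deposited tables, and all 10 passed the filter on low counts. The set was built around Actb because it took the largest share of counts in every library and because that share differed between groups. The level and share of Actb are therefore given as a description, with no test. The other 9 genes were picked by name as its partners, with earlier results of these libraries known.

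All mice were labelled wild type and all libraries came from sorted haematopoietic stem cells (HSCs) of femora and tibiae, with 1500 cells and 12 PCR cycles per library. The spermidine group had chemogenetic inhibition of the brain regions mPFC and PAG together with a spermidine supplement (library names AAV-SPD). The inhibition group had the same inhibition without the supplement (library names AAV). The control group had neither. Each group held 3 libraries, and the labels give no age, sex, dose, duration, sort markers or promoter, nor whether control mice received a vector. They also do not say whether libraries came from separate mice, so the p-values reflect the scatter among these libraries alone, which may be technical.

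Actin is a small protein that joins into filaments and leaves them again, and this cycle shapes the cell cortex, drives crawling and holds blood cells in their niche. Thymosins and profilin hold the free monomer, cofilin and coronin take old filaments apart, and the Arp2/3 complex starts a new branch on the side of an existing filament. Rac GTPases switch branching on at the membrane. Rac1 is found in most tissues and Rac2 in blood cells, and loss of Rac proteins in mice disturbs the lodging of HSCs in marrow.

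Estimated counts per library totalled 16096276 to 25360256, and levels below are CPM, a gene's count relative to its library's total, scaled by TMM factors (0.931 to 1.14), unless given as TPM, which also divides by length. The 10 markers of HSCs and early progenitors looked for were all counted in each group and summed to 524 to 536 CPM in spermidine, 508 to 513 CPM in inhibition and 412 to 431 CPM in control. The largest part of each sum was Cd48, which with Flt3 marks progenitors rather than HSCs and averaged 182 CPM in spermidine, 239 CPM in inhibition and 205 CPM in control, so the sum is not a measure of HSC markers alone. Within that list Procr, an HSC surface receptor, averaged 7.58 CPM in spermidine, 4.10 CPM in inhibition and 0.125 CPM in control. Ly6a, which encodes Sca-1, averaged 94.4 CPM in spermidine, 83.5 CPM in inhibition and 6.21 CPM in control, and Slamf1, the HSC marker CD150, ran the other way at 13.7, 17.6 and 104 CPM in the same order. Transcripts of other marrow cells were present too and differed between groups. A list of 15 neutrophil genes held granule genes and others, such as S100a8 and S100a9. It took 2.27% to 2.37% of counts in spermidine, 5.48% to 5.59% in inhibition and 0.393% to 0.404% in control, where Stfa2 was at 0. In these bulk samples fewer cells of a type and less RNA per cell cannot be told apart.

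Of the 9 members other than Actb, 6 were higher and 3 lower in inhibition than in control (edgeR, adjusted p under 0.05), where 72.4% of all 14461 tested genes were called (36.2% higher and 36.1% lower). In spermidine against inhibition, 8 were lower, 0 were higher and 1 did not pass, against 58.1% of all genes called (29.1% higher and 28.9% lower). In spermidine against control, 4 were higher, 4 were lower and 1 did not pass, against 78.1% of all genes called (41% higher and 37.1% lower). The median log2 fold change of the 9 was 0.22, -0.36 and 0.06 in these 3 comparisons, in that order, beside 0.02, 0.03 and 0.06 over all tested genes. Ranges of the paired groups stood apart for 9, 8 and 9 of the 9 members, as they did for 74.5%, 62.8% and 79.8% of all genes. With so many genes called, the counts alone do not set these members apart. The comparisons share libraries (spermidine and inhibition are each set against the same control libraries, and inhibition is the baseline of the second), so they are not independent. Actb also did not overlap between any pair of groups.

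The scale mattered for both comparisons of spermidine. Scaling by total counts in place of TMM moved the median log2 fold change of all genes: it became 0.29 in spermidine against inhibition and 0.32 in spermidine against control. The split of calls over all genes then became 7703 higher and 1801 lower in spermidine against inhibition, in place of 4213 and 4183, and 7696 higher and 3689 lower in spermidine against control, in place of 5930 and 5362. Among members in spermidine against inhibition, Rac1 turned to a log2 difference of 0.10 and Tmsb10 to 0.27, both then called higher. Actg1 (-0.01) lost its call, and 6 members were still called lower. In spermidine against control, Pfn1 (-0.03) lost its call and Rac1 (0.32) gained one.

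**Figure D1:**
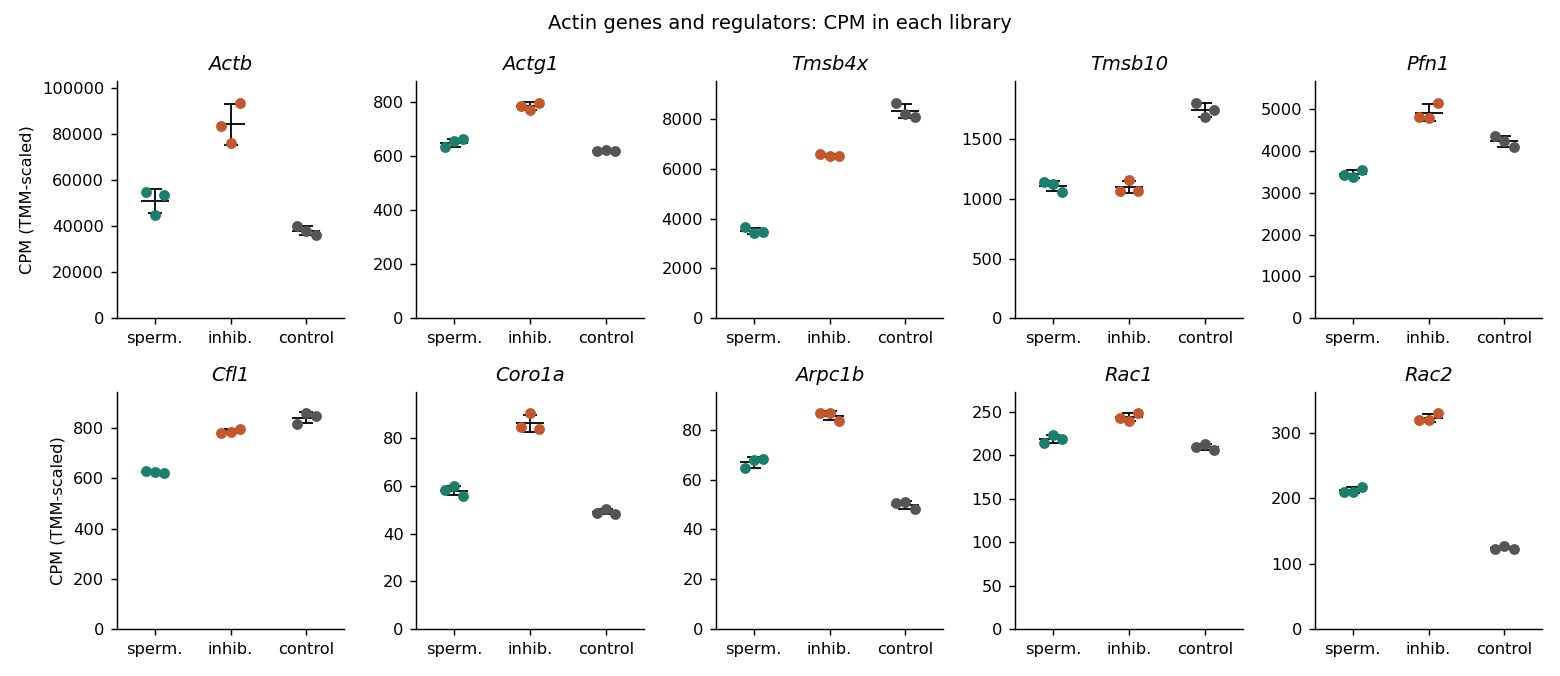
TMM-scaled CPM of the 10 genes in each library (points), with group mean (long line) and SD (error bar, n = 3), for spermidine, inhibition and control. On this scale Actb, Actg1, Pfn1, Coro1a, Arpc1b, Rac1 and Rac2 are highest in inhibition, while Tmsb4x, Tmsb10 and Cfl1 are highest in control. By mean TPM, Cfl1 is lowest in control, and Actg1 and Rac1 are highest in spermidine.

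Actb encodes beta-actin, the main cytoplasmic actin, from chr5:142903115-142906754 on the minus strand (mm10). It took 6.13%, 5.11% and 5.99% of all counts in the 3 spermidine libraries, against 7.87%, 7.21% and 8.72% for inhibition and 3.73%, 3.56% and 3.45% for control. It was the most counted gene in all 9. The inhibition libraries were the highest, the control libraries the lowest and the spermidine libraries between them, with no overlap. In CPM, Actb averaged 50943 ± 5270 in spermidine, 84242 ± 8913 in inhibition and 38067 ± 1861 in control (SD, n = 3 each). That is 2.21-fold higher in inhibition than in control, 0.605-fold in spermidine relative to inhibition, and 1.34-fold in spermidine relative to control.

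Per length the rank was less fixed. Actb held 26466 ± 2684 TPM in spermidine, 34758 ± 3091 TPM in inhibition and 14910 ± 1118 TPM in control (SD, n = 3 each). It ranked 1 by TPM in every spermidine library and in 2 of the 3 inhibition libraries. In inhibition replicate 2 S100a8, a gene high in neutrophils, stood above it. In all 3 control libraries it ranked 4, behind H2ac24, Gm10925 and ATP8. Actb was also an unsteady gene inside its groups. Its coefficient of variation was 10.3% in spermidine, 10.6% in inhibition and 4.89% in control, where the median over 2545 genes of at least 50 CPM was 2.55%, 2.89% and 2.43%.

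**Figure D2:**
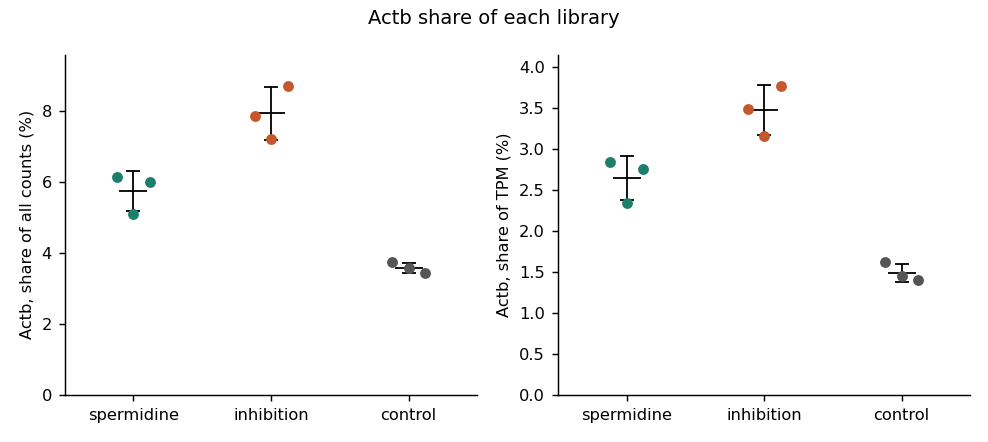
Share of each library taken by Actb, as percent of counts (left) and percent of TPM (right), per library with group mean and SD (n = 3), for spermidine, inhibition and control. On both scales the inhibition libraries lie highest and the control libraries lowest; the counts run between 3.45% and 8.72%.

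Because Actb was so large, the whole set moved with it. The 10 genes together took 6.86% ± 0.56 of counts in spermidine, 9.33% ± 0.76 in inhibition and 5.10% ± 0.17 in control (SD, n = 3 each). Without Actb the other 9 took 1.12% ± 0.0081, 1.40% ± 0.0043 and 1.52% ± 0.028 in the same order of groups. So the summed share of the 9 partners was largest in control, while that of the full set was largest in inhibition. Tmsb4x was the largest part of the 9-gene sum by group mean, at 0.397% in spermidine, 0.616% in inhibition and 0.783% in control. The sum thus depends much on that gene, and 6 of the 9 were called higher in inhibition than in control.

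Actg1 encodes gamma-actin, a near twin of beta-actin, from chr11:120345690-120348542 on the minus strand. The coding sequences of the pair have the same 1128 bases of length, differ at 128 of them (88.7% identity) and share at most 62 bases in a row. Their first 60 coding bases, from GENCODE M21 on mm10, are shown because reads are assigned to one actin or the other by such differences, which are in capitals.
Actb: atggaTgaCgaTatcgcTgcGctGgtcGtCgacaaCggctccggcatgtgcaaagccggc
Actg1: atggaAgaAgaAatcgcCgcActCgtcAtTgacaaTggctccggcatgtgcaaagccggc
Actb had far more counts than Actg1, so a small share of Actb reads placed on Actg1 would change the Actg1 value, and its values carry that uncertainty.

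Actg1 had 634, 654 and 662 CPM in spermidine, 786, 771 and 798 CPM in inhibition, and 617, 624 and 618 CPM in control. Every inhibition library was above every other library, and the spermidine libraries were slightly above the control libraries. Actg1 rose in inhibition relative to control by a log2 fold change of 0.34 (SE 0.03; edgeR adjusted p = 5.47e-09). It fell in spermidine relative to inhibition by 0.27 on the log2 scale (SE 0.03; edgeR adjusted p = 2.96e-07). The gap between spermidine and control was 0.07 (SE 0.03; edgeR adjusted p = 0.0295), and it was not called with DESeq2 (0.06), without the low count filter (0.01) or in 8 of the 9 fits that left out 1 library (0.04 to 0.09 over the 9). On TPM the sign of spermidine against inhibition turned to 0.02.

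The log2 ratio of Actb to Actg1 in TPM was 6.21 ± 0.17 in spermidine, 6.63 ± 0.09 in inhibition and 5.95 ± 0.10 in control (SD, n = 3 each). Inhibition libraries had a higher ratio than spermidine or control libraries, and spermidine and control overlapped. The ratio rests on the Actb level that chose the set, so it is a description.

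The promoter of Actg1 is shown because SRF, a factor that raises many actin genes when free actin runs low, binds CArG boxes. In RefSeq windows on GRCm38.p6 (250 bases before each start), 7 of the 10 members were found and searched, and of these Actg1 alone held a CArG box. Actb, Rac1 and Rac2 were not searched. Over 32851 windows, 1.47% held one. The stretch chr11:120348546-120348645 (minus strand, bases -150 to -51 from the start) has the box in capitals, which reads the same on both strands.
Actg1: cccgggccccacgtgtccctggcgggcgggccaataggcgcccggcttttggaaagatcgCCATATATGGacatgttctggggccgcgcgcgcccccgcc
Other motifs searched on both strands were GGGCGG, in 6 of the 7 members and 32.7% of all windows, CCAAT, in 2 of the 7 and 33.8%, GGAAGT, in 1 of the 7 and 19.7%, and TATAAA, in 0 of the 7 and 12.4%. A member counted when any of its windows held the motif (Tmsb10 had 3 windows and Coro1a 2), while the shares are of single windows. Windows of members were 52% to 79.2% G or C, beside a median of 52.4% over all windows. A match is a run of letters and not a measured site. Srf itself had 1.501 ± 0.16 CPM in spermidine, 1.30 ± 0.18 CPM in inhibition and 3.10 ± 0.31 CPM in control (SD, n = 3 each). It was lower in inhibition than in control by a log2 change of -1.25 (SE 0.19; edgeR adjusted p = 1.25e-05). Its coactivator Mrtfb was higher, at a log2 fold change of 0.83 (SE 0.11; edgeR adjusted p = 2.98e-06), though on TPM it was 0.12 and did not pass.

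Both thymosins were highest in control, unlike the actins. Tmsb4x encodes thymosin beta 4, which holds monomers away from filaments, and lies at chrX:167207093-167209315 on the minus strand. It had 3646, 3426 and 3481 CPM in spermidine, 6590, 6504 and 6522 CPM in inhibition, and 8663, 8223 and 8096 CPM in control. The groups were fully apart, with control highest and spermidine lowest. Tmsb4x fell by 0.35 on the log2 scale in inhibition relative to control (SE 0.03; edgeR adjusted p = 1.40e-08). It fell by 0.89 in spermidine relative to inhibition (SE 0.03; edgeR adjusted p = 3.94e-13) and by 1.24 in spermidine relative to control (SE 0.03; edgeR adjusted p = 6.82e-16). Under every scaling and unit tried the 3 signs held, and the smallest values were -0.25, -0.60 and -0.85.

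Tmsb10 encodes thymosin beta 10, a relative with the same monomer binding role, and lies at chr6:72957347-72958748 on the minus strand. It had 1141, 1121 and 1057 CPM in spermidine, 1066, 1158 and 1070 CPM in inhibition, and 1807, 1686 and 1748 CPM in control. Control was the highest group, and the other two overlapped. Tmsb10 fell by 0.67 in inhibition (SE 0.04; edgeR adjusted p = 5.34e-11) and by 0.66 in spermidine (SE 0.04; edgeR adjusted p = 6.75e-11), each relative to control on the log2 scale. Spermidine and inhibition differed by 0.01 (SE 0.04; edgeR adjusted p = 0.824), a gap smaller than the spread of either group on the TMM scale, while total counts gave 0.27 and TPM 0.31.

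The 2 thymosins share a coding length of 135 bases and 70.4% of them, with 40 differing bases and no shared run longer than 10. The whole coding sequences (GENCODE M21) are shown because the pair diverged between groups and so must be told apart, and capitals mark where they differ.
Tmsb4x: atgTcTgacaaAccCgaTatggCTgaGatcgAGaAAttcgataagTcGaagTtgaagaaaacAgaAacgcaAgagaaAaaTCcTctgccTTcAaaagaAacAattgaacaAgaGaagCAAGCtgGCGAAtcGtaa
Tmsb10: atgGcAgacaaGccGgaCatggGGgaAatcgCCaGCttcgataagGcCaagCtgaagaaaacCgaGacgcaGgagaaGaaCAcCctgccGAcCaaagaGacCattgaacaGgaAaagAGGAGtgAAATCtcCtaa
The log2 ratio of Tmsb4x to Tmsb10 in TPM was 0.80 ± 0.04 in spermidine, 1.71 ± 0.05 in inhibition and 1.48 ± 0.07 in control (SD, n = 3 each). No library of any group overlapped another group. A ratio within a library does not depend on the scaling factor, so the thymosins did not change by the same factor in spermidine against inhibition.

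Pfn1 encodes profilin, which loads monomers onto growing filaments, and lies at chr11:70651850-70654644 on the minus strand. It had 3432, 3372 and 3551 CPM in spermidine, 4822, 4778 and 5156 CPM in inhibition, and 4350, 4246 and 4092 CPM in control. Inhibition was highest and spermidine lowest. Pfn1 rose by 0.22 in inhibition relative to control (SE 0.03; edgeR adjusted p = 1.45e-05) and fell by 0.51 in spermidine relative to inhibition (SE 0.03; edgeR adjusted p = 1.62e-09), in log2 units. In spermidine relative to control it fell by 0.29 (SE 0.03; edgeR adjusted p = 4.40e-07), but the value was -0.03 with total count scaling and turned to 0.15 on TPM.

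Cfl1, at chr19:5490455-5495201 on the plus strand, encodes cofilin 1, which severs old filaments. It had 630, 627 and 619 CPM in spermidine, 782, 783 and 797 CPM in inhibition, and 818, 859 and 848 CPM in control. Counts put control slightly above inhibition and spermidine lowest. Cfl1 fell by 0.10 in inhibition relative to control on the log2 count scale (SE 0.03; edgeR adjusted p = 0.0043), and the sign turned on TPM, at 0.35. In spermidine relative to control the value was -0.43 (SE 0.03; edgeR adjusted p = 2.50e-10) on counts and 0.31 on TPM. The 2 deposited tables thus disagree on Cfl1 against control. The length implied by count over TPM was shorter by 0.39 in inhibition and by 0.36 in spermidine, in log2 units relative to control, a larger shift than in 92.5% and 90.7% of genes. In spermidine relative to inhibition Cfl1 fell by 0.33 on counts (SE 0.03; edgeR adjusted p = 2.79e-08), and TPM gave -0.04.

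Dstn encodes destrin, a cofilin relative with the same severing role. It had 200, 197 and 203 CPM in spermidine, 450, 440 and 431 CPM in inhibition, and 168, 172 and 161 CPM in control. It was far higher in inhibition than in both other groups. Dstn rose by 1.40 in inhibition relative to control (SE 0.03; edgeR adjusted p = 2.72e-16) and fell by 1.14 in spermidine relative to inhibition (SE 0.03; edgeR adjusted p = 3.86e-14), in log2 units. The log2 TPM ratio of Cfl1 to Dstn was 2.02 ± 0.08 in spermidine, 1.23 ± 0.10 in inhibition and 2.33 ± 0.09 in control (SD, n = 3 each), and no groups overlapped. Cfl2, the muscle-type cofilin, was low, at 16.6 CPM in spermidine, 13.5 CPM in inhibition and 9.12 CPM in control.

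Coro1a encodes coronin 1A, a blood cell coronin that works with cofilin and Arp2/3, from chr7:126699773-126707787 on the minus strand. It had 58.5, 59.9 and 56.0 CPM in spermidine, 84.6, 90.6 and 84.1 CPM in inhibition, and 48.9, 50.4 and 48.3 CPM in control. All groups were apart, with inhibition highest. Coro1a rose by 0.81 in inhibition relative to control (SE 0.04; edgeR adjusted p = 1.77e-11) and by 0.24 in spermidine relative to control (SE 0.04; edgeR adjusted p = 8.01e-05), in log2 units. It fell by 0.57 in spermidine relative to inhibition (SE 0.04; edgeR adjusted p = 5.40e-09). Bola2 overlaps Coro1a on the other strand by 26 exon bases, and its summed count was 460% of that of Coro1a. Against control Bola2 moved differently, with a log2 change of -0.35 in inhibition and -0.88 in spermidine. In spermidine relative to inhibition Bola2 fell as Coro1a did, at -0.53. No strand-specific step is stated, so reads in that stretch cannot be told apart.

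The related coronins moved in both directions. Coro2a, a coronin of lower level, had 17.4 ± 0.70 CPM in spermidine, 12.6 ± 0.60 CPM in inhibition and 6.59 ± 0.66 CPM in control (SD, n = 3 each). Like Coro1a it rose in inhibition relative to control, by a log2 fold change of 0.94 (SE 0.09; edgeR adjusted p = 4.87e-08), but it was highest in spermidine. Coro1b was lower in inhibition than in control by a log2 change of -0.39 (SE 0.09; edgeR adjusted p = 0.00111), and Coro1c by -0.65 (SE 0.07; edgeR adjusted p = 6.39e-07). The log2 TPM ratio of Coro1a to Coro1b was 2.14 ± 0.10 in spermidine, 2.92 ± 0.10 in inhibition and 1.49 ± 0.19 in control (SD, n = 3 each), without overlap.

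Arpc1b encodes a subunit of Arp2/3 that is abundant in blood cells, and lies at chr5:145114215-145130705 on the plus strand. It had 64.5, 67.8 and 68.5 CPM in spermidine, 86.7, 86.6 and 83.6 CPM in inhibition, and 50.4, 51.2 and 48.1 CPM in control. Inhibition was highest and control lowest, without overlap. Arpc1b rose by 0.78 in inhibition (SE 0.04; edgeR adjusted p = 1.49e-11) and by 0.42 in spermidine (SE 0.04; edgeR adjusted p = 5.82e-08), each relative to control in log2 units. It fell by 0.36 in spermidine relative to inhibition (SE 0.04; edgeR adjusted p = 7.06e-07), a fall that shrank to -0.10 with total counts and to -0.01 on TPM.

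Arpc1a, the alternative form of that subunit, went the opposite way. It had 50.5, 52.0 and 50.1 CPM in spermidine, 57.2, 58.4 and 61.2 CPM in inhibition, and 346, 318 and 328 CPM in control. Control stood far above the other groups. Arpc1a fell by 2.49 in inhibition (SE 0.04; edgeR adjusted p = 2.67e-18) and by 2.70 in spermidine (SE 0.04; edgeR adjusted p = 1.41e-18), each relative to control in log2 units. Arpc1a and Arpc1b are neighbours on chromosome 5, with 5453 bases between them, and their coding sequences share 73.6% of aligned bases. The log2 TPM ratio of Arpc1b to Arpc1a was -0.16 ± 0.09 in spermidine, -0.12 ± 0.09 in inhibition and -4.23 ± 0.16 in control (SD, n = 3 each). Spermidine and inhibition overlapped, and control lay far below both. In CPM the gap between inhibition and control was 3.27 in place of the 4.11 in TPM. The length that count over TPM implies for Arpc1a was longer in inhibition than in control by 0.69 log2 units, a larger shift than in 98.0% of genes. Pdap1, on the other strand, shares 931 exon bases with Arpc1b, so reads there cannot be told apart. The count given to Pdap1 was 45.2% of that given to Arpc1b. Pdap1 was lower than in control, by a log2 change of -0.91 in inhibition and -1.36 in spermidine. In spermidine relative to inhibition it fell, as Arpc1b did, at -0.45.

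Of the 9 other Arp2/3 genes, 6 rose and 3 fell in inhibition relative to control. Over all tested genes 36.2% rose and 36.1% fell. Actr3, a core subunit that resembles actin, had 183 ± 3.1 CPM in spermidine, 313 ± 12.0 CPM in inhibition and 120 ± 1.8 CPM in control (SD, n = 3 each), and its log2 fold change in inhibition against control was 1.39 (SE 0.03; edgeR adjusted p = 6.36e-16). Actr2 (0.82), Arpc5 (0.74), Arpc2 (0.63) and Arpc4 (0.35) also rose. Actr3b, under 1 CPM in each group, rose too (3.00). Arpc5l (-0.85) and Arpc3 (-0.34) fell, as did Arpc1a. In spermidine relative to inhibition 8 of the 9 fell, at -0.20 to -0.77, but with total counts 4 did (Actr2, Actr3, Arpc2 and Arpc5), and Arpc1a (0.05) and Arpc5l (0.06) turned sign without passing. Actr3b did not pass in that comparison, at 0.29 (SE 0.33). In spermidine relative to control 5 rose and 3 fell, and Arpc4 did not pass, while on TPM Arpc5l stood at 0.01 and did not pass. Over all genes, 28.9% were lower in spermidine than in inhibition, and 41% were higher and 37.1% lower in spermidine than in control. Subunits of this complex moved in both directions against control, as did genes at large.

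**Figure D3:**
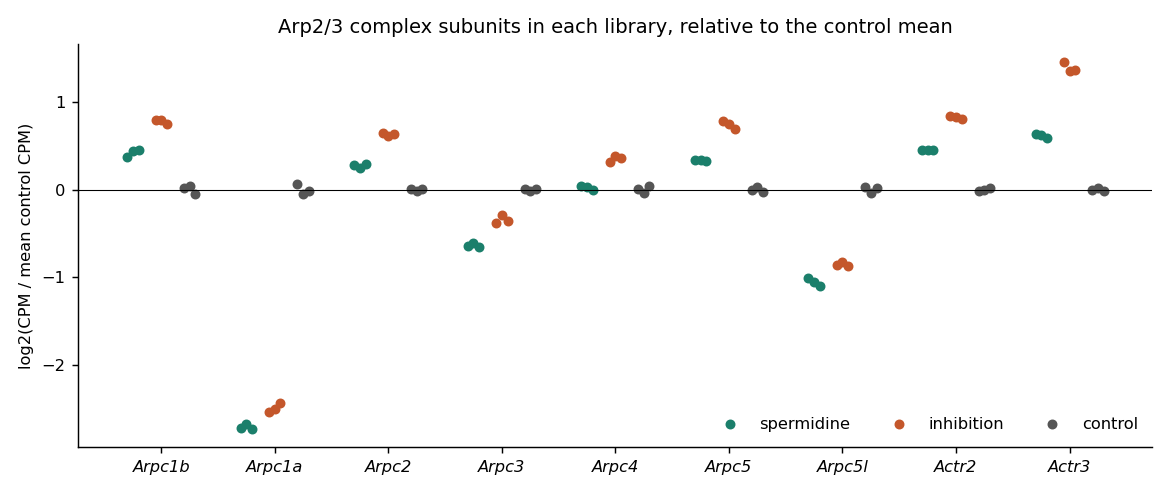
Log2 of CPM over the mean control CPM for Arp2/3 subunits in each library, with spermidine left, inhibition in the middle and control right within each gene (Actr3b, under 1 CPM, is not drawn). Arpc1a is more than 2 log2 units below control in every spermidine and inhibition library, while Actr3 is highest in inhibition.

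Rac1, at chr5:143503634-143528036 on the minus strand, is the broadly expressed Rac. It had 214, 224 and 218 CPM in spermidine, 243, 240 and 248.6 CPM in inhibition, and 210, 214 and 207 CPM in control. The inhibition libraries were the highest, and the others lay close together. Rac1 rose by 0.21 in inhibition relative to control (SE 0.03; edgeR adjusted p = 6.82e-06). It was lower in spermidine than in inhibition by -0.16 (SE 0.03; edgeR adjusted p = 0.000323), a sign that turned with total counts (0.10) and TPM (0.14). Spermidine and control differed by 0.06 (SE 0.03; edgeR adjusted p = 0.0879), and the call was made with total counts at 0.32. Daglb, on the other strand, shares 2309 of the 4496 exon bases of Rac1, so reads there cannot be told apart. The count given to Daglb was 2.2% of that given to Rac1.

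Rac2, at chr15:78559167-78572783 on the minus strand, is the blood cell Rac. It had 209.6, 209.5 and 217 CPM in spermidine, 320.1, 319 and 330.4 CPM in inhibition, and 123, 126 and 123 CPM in control. The groups were widely separated in comparison with their spread. The rise in inhibition over control was 2.603-fold. Rac2 was 1.71-fold higher in spermidine than in control (log2 fold change 0.77, SE 0.03; edgeR adjusted p = 5.49e-13). It fell by 0.61 in spermidine relative to inhibition (SE 0.03; edgeR adjusted p = 4.47e-11), and TPM gave -0.15, which did not pass.

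The log2 TPM ratio of Rac2 to Rac1 was 1.13 ± 0.11 in spermidine, 1.42 ± 0.16 in inhibition and 0.18 ± 0.15 in control (SD, n = 3 each). Per length Rac2 exceeded Rac1 in all 9 libraries, by 2.04-fold to 2.36-fold in spermidine, 2.37-fold to 2.86-fold in inhibition and 1.03-fold to 1.26-fold in control. In CPM Rac2 was above Rac1 in the inhibition libraries only. Rac3 averaged under 0.1 CPM in each group and was not tested. Cdc42, a GTPase that promotes thin protrusions, rose by 0.69 in inhibition relative to control (SE 0.03; edgeR adjusted p = 1.74e-12). Rhoa, which promotes contraction, did not pass at 0.03 (SE 0.03; edgeR adjusted p = 0.368), and TPM called it at 0.12.

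**Figure D4:**
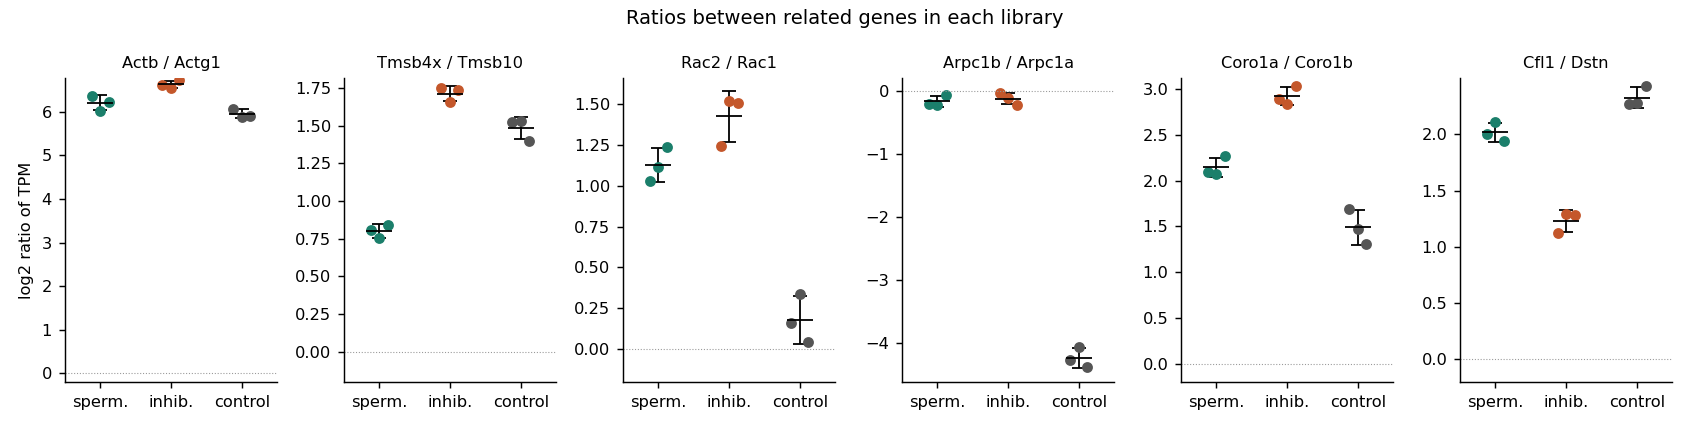
Log2 ratio of TPM between 6 pairs of related genes in each library, with group mean and SD (n = 3), for spermidine, inhibition and control; the dotted line marks equal TPM. Arpc1b over Arpc1a is near the line in spermidine and inhibition and at -4.23 in control, and Rac2 over Rac1 is lowest in control.

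**Figure D5:**
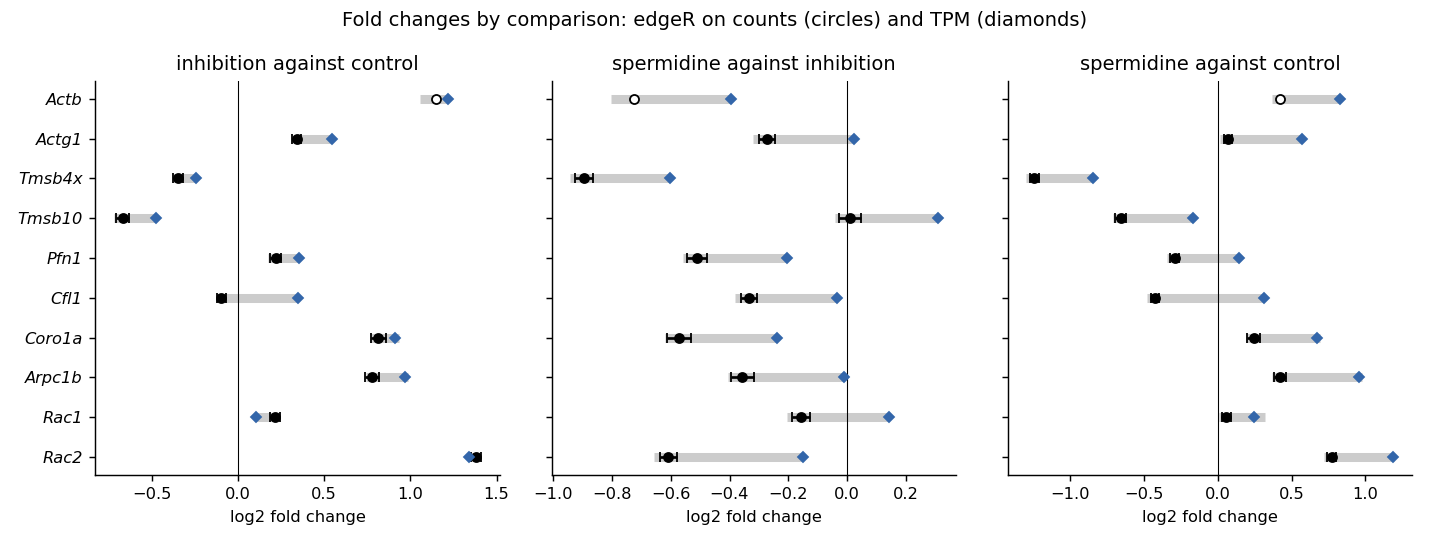
Log2 fold change of each member in the 3 comparisons from counts (circles, with SE from edgeR; open without error bar for Actb) and from TPM (diamonds); grey bars span all settings tried. Cfl1 is the member whose grey bar crosses 0 in both comparisons with control, from -0.13 to 0.35 in inhibition against control.

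Beyond the members, 169 further actin genes in 13 lists were in the tables and 160 were tested. In inhibition against control 78 were higher and 47 lower, with a median log2 fold change of 0.19. Set against inhibition, spermidine had 27 higher and 71 lower, with a median of -0.15, and total count scaling changed this to 55 higher and 33 lower. In spermidine against control 74 were higher and 55 lower, with a median of 0.12. Called genes made up 78.1%, 61.2% and 80.6% of these lists in the 3 comparisons, against 72.4%, 58.1% and 78.1% of all genes. Counts for single lists below stand beside 36.2% higher and 36.1% lower of all genes in inhibition against control.

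Among bundling and crosslinking proteins, 7 of 15 tested genes rose and 2 fell in inhibition relative to control. That is 60% called, below the 72.4% of all genes. Lcp1, a plastin that bundles filaments in white blood cells, had 128 ± 3.0 CPM in spermidine, 183 ± 3.8 CPM in inhibition and 35.0 ± 1.3 CPM in control (SD, n = 3 each). Its log2 fold change in inhibition against control was 2.39 (SE 0.04; edgeR adjusted p = 3.70e-18). Lsp1, a leukocyte filament binder, rose by 1.64, while Actn4, an alpha-actinin, fell by 0.87. Relative to inhibition, spermidine libraries had less of the crosslinker Flna, which fell by 0.83 (SE 0.05; edgeR adjusted p = 1.78e-09).

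Capping and severing proteins split evenly, with 7 of 14 higher and 7 lower in inhibition than in control. Capza1, a subunit of capping protein, had 217 ± 5.4 CPM in spermidine, 361 ± 10.6 CPM in inhibition and 147 ± 4.1 CPM in control (SD, n = 3 each), a log2 fold change of 1.29 in inhibition against control. Gelsolin, Gsn, which severs and caps, rose by 2.04 in inhibition against control and fell by 1.26 in spermidine against inhibition. Add1 (-0.92) and Flii (-0.82) fell in inhibition against control.

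Among the 9 other monomer binders, 2 rose and 3 fell in inhibition against control. Twf1, twinfilin 1, had 576 ± 25.7 CPM in spermidine, 538 ± 6.8 CPM in inhibition and 193 ± 5.6 CPM in control (SD, n = 3 each), with a log2 fold change of 1.48 in inhibition against control. Cap1, a cyclase-associated monomer binder, rose by 1.05. Of 16 turnover genes, 6 rose and 5 fell, with Dstn at 1.40, Coro2a at 0.94, the cofilin kinase Limk2 at -2.05 and Coro7 at -0.70.

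Activators of Arp2/3 had 9 higher and 7 lower of 21 in inhibition against control. Cyfip2, of the WAVE complex, rose by 1.06 and Wipf1, a partner of WASP, by 0.78, though on TPM Wipf1 was at 0.18 and did not pass. Washc4, of the endosomal WASH complex, was at -1.34 and Wasl, neural WASP, at -1.11. Formins and Ena/VASP proteins had 6 higher and 5 lower of 13. Diaph1, a formin, had 5.15 ± 5.88 CPM in spermidine, 0.966 ± 1.07 CPM in inhibition and 27.9 ± 0.94 CPM in control (SD, n = 3 each). Its spread was larger than its mean in both spermidine and inhibition. Enah fell by 1.68 and Vasp, which aids filament growth, rose by 0.38. Fmnl2, another formin, had 13.7 ± 1.8 CPM in spermidine, 8.96 ± 0.17 CPM in inhibition and 0.724 ± 0.16 CPM in control (SD, n = 3 each), and its log2 fold change in spermidine against control was 4.25 on counts and 1.56 on log2(TPM + 1).

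Of 31 GTPase regulators, 16 rose and 8 fell in inhibition against control, and Dock1, an activator of Rac, rose by 1.62. Vav3, another activator of Rac, rose by 1.47. Arhgap45, which turns GTPases off, fell by 1.08. Arhgef2, an activator of RhoA, had 48.3 ± 2.4 CPM in spermidine, 56.3 ± 2.7 CPM in inhibition and 225 ± 8.2 CPM in control (SD, n = 3 each), a log2 change of -1.99 in inhibition against control.

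Tropomyosins and myosins had 7 higher and 5 lower of 14 in inhibition against control, with the motors Myo1f at 1.40 and Myh9 at 0.90 and the tropomyosin Tpm1 at -0.76. All 3 membrane linkers of the ezrin family rose, Rdx by 0.47 and Ezr by 0.45 among them. Rdx (-0.36) and Msn (-0.37) fell in spermidine against inhibition, which with total counts became -0.10 and -0.11 and did not pass. Muscle actins were scarce: Acta2 had 1.46 CPM in spermidine, 1.25 CPM in inhibition and 0.160 CPM in control.

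The genes whose pattern over the 9 libraries lay closest to that of Actb were S100a11, Ssr1, Arhgdib, Hmgn2-ps and Hmgn2, by root mean square difference of centred log2 CPM among 2544 candidates of at least 50 CPM. Their distances were 0.093, 0.094, 0.096, 0.104 and 0.106 in the order named. Hmgn2-ps and Hmgn2 are near copies by name, and reads may be shared between them. Arhgdib, an inhibitor that keeps GTPases such as the Racs in the cytosol, had 6044 ± 159 CPM in spermidine, 9443 ± 289 CPM in inhibition and 4280 CPM in control. It was picked for its likeness to Actb, so its order of groups is a description. Within the set, Rac2 (0.176), Coro1a (0.194) and Arpc1b (0.213) were nearest to Actb, and Tmsb4x (0.751) and Tmsb10 (0.755) were farthest.

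Actb is often used to normalise other genes, so 11 common reference genes were set beside it. In inhibition against control 9 were higher and 2 were lower, where 36.2% of all genes were higher and 36.1% lower. Ywhaz stood at 0.97, Gapdh at 0.52, B2m at -0.61 and Rpl13a at -0.80 on the log2 scale. The values nearest to 0 were those of Ppia (0.07) and Hprt (0.08). Between spermidine and inhibition 2 were higher and 9 lower in spermidine, or 3 and 4 with total counts, and in spermidine against control 4 were higher and 4 lower, or 7 and 3 with total counts. Over all genes 29.1% were higher and 28.9% lower in spermidine than in inhibition, and 41% and 37.1% in spermidine than in control.

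Marker transcripts of other cells moved beside the members that rose in inhibition. Monocyte and macrophage genes took 0.242% to 0.256% of counts in spermidine, 0.508% to 0.523% in inhibition and 0.0849% to 0.0883% in control, with all 12 counted in each group. Lyz2 was the largest part of that sum in spermidine (1654 CPM) and inhibition (4339 CPM), against 351 CPM in control. Ly6c2 averaged 412 CPM in spermidine, 877 CPM in inhibition and 500 CPM in control. Of the 11 genes tested, 9 were higher and 0 lower in inhibition than in control. In spermidine against control 4 were higher, 2 lower and 5 did not pass, or 6, 0 and 5 with total counts. B and plasma cell genes took 0.196% to 0.212% in spermidine, 0.437% to 0.467% in inhibition and 0.00777% to 0.00785% in control. T and NK cell genes took 0.113% to 0.124% in spermidine, 0.178% to 0.192% in inhibition and 0.119% to 0.129% in control. Nkg7 made up nearly all of that sum, at 1025 CPM in spermidine, 1915 CPM in inhibition and 1310 CPM in control. Of the 8 T and NK genes tested, 8 were higher in inhibition than in control, and 7 were higher and 1, Nkg7, lower in spermidine than in control. Over all genes 36.2% were higher and 36.1% lower in inhibition than in control, and 41% and 37.1% in spermidine than in control. Platelet genes ran the other way, at 0.0163% to 0.0173% in spermidine, 0.0137% to 0.0147% in inhibition and 0.279% to 0.282% in control. Erythroid genes took 0.0372% to 0.0393% in spermidine, 0.0666% to 0.0706% in inhibition and 0.166% to 0.174% in control. That sum followed Car1, at 26.0 CPM in spermidine, 29.7 CPM in inhibition and 1596 CPM in control, and 5 of the 9 erythroid genes were higher and 4 lower in inhibition than in control. The globins were among the higher ones, with Hba-a2 at 143 CPM in spermidine, 327 CPM in inhibition and 47.8 CPM in control. Rac2, Coro1a, Arpc1b and Lcp1 are also expressed in mature white blood cells, and Tmsb4x is abundant in platelets. When the marker genes were left out of library totals and scaling, a choice made after seeing the data, the log2 fold changes in inhibition against control were 1.14 for Actb, 1.37 for Rac2, 0.81 for Coro1a and 0.77 for Arpc1b. That step does not remove the other RNA of such cells, and their part in the results was not tested.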

How the data were processed

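Low-input polyA RNA sequencing of 9 sorted HSC libraries was analysed. Per the submitters' processing notes, Trim Galore 0.6.2, STAR 2.6.1d, HTSeq 0.10.0, edgeR 3.24.3 and the build mm10 were used, without step or order. The authors deposited estimated counts per gene, unscaled between libraries (48.2% of values are whole to within 1e-06), and TPM, scaled within each library for length and depth. How fractional counts arose is not given in the sources used here.

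Estimated counts were rounded and fitted in R 4.3.3 with edgeR 4.0.16 (quasi-likelihood test, TMM, default low count filter, all 9 libraries in 1 fit with group means, Benjamini-Hochberg over 14461 genes, threshold 0.05). The code was tested on simulated data. Few genes changed in those data, with as many rises as falls, so that test does not address the choice of scaling. TPM was tested with limma 3.58.1 on log2(TPM + 1), with a pseudocount of 0.1 as an alternative, which understates changes of low genes. Other alternatives were DESeq2 1.42.0, total count scaling, TMM without the members, no filter, a replicate block and leaving out each library. With 3 libraries against 3 an exact permutation test cannot go below p = 0.1, so ratios and shares have no test. A count of 0 (floor of 3 counts) allows 0.118 to 0.186 CPM, counting error only, since PCR copies are not independent molecules. Libraries of a group differed by more than counting noise (chi-square per gene 2.31 to 7.22).

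Coordinates and coding sequences come from GENCODE M21, in which 19437 gene identifiers matched and 17 did not. Coding sequences are those of 1 transcript per gene. The members, lists and tests were chosen with earlier results of these data known. Named genes are the members, the Arp2/3 genes, 11 reference genes, listed relatives of members and, per actin list and comparison, the 2 largest rises and 2 largest falls among called genes whose groups do not overlap and reach 10 CPM; some of these, mostly from the comparisons with spermidine, were left out of the text, and a few items are not reported here. Bola2, Pdap1, Daglb, Srf, Acta2, Procr, Ly6a, Slamf1, Cd48, Lyz2, Ly6c2, Nkg7, Car1 and Hba-a2 were named after their values were seen.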

Additional observations from a re-analysis of the deposited data

How the results depend on the processing

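Settings that keep counts and a scaling on the bulk of genes (DESeq2 with its own size factors, and TMM with members or marker genes left out, without the filter or without 1 library) kept the counts of called members and other actin genes within 1.5 times of those reported. TPM did not in either comparison with spermidine, nor total counts in spermidine against inhibition. Over all genes in spermidine against control, TPM gave 2380 lower at a pseudocount of 0.1, 2415 at 1, and 2918 lower with 9239 higher without the filter. In spermidine against inhibition it gave 1094, 1119 and, without the filter, 1333 lower with 7997 higher, and total counts gave 1801 lower with 7703 higher. Of the 9 tested members, each TPM setting called 7 higher and 2 lower in spermidine against control, and 2 higher and 3 lower in spermidine against inhibition; total counts called 2 higher against inhibition.

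Other actin genes called lower in spermidine against control numbered 25, 25 and 28 on TPM (0.1, 1, no filter). In spermidine against inhibition, 50, 53 and 62 were higher and 20, 20 and 19 lower, and total counts gave 55 higher and 33 lower. As shares of TPM in place of counts, the 10 members took 4.35% in spermidine, 5.53% in inhibition and 3.64% in control. CPM in place of TPM moved these differences of log2 ratios: Actb over Actg1 in inhibition against control to 0.80; Arpc1b over Arpc1a to 3.27, -0.15 and 3.12 (inhibition against control, spermidine against inhibition, spermidine against control); Cfl1 over Dstn to -1.50 and -0.69 against control; Coro1a over Coro1b to 1.20 in inhibition against control and -0.63 in spermidine against inhibition; Rac2 over Rac1 to 0.71 in spermidine against control; Tmsb4x over Tmsb10 to 0.32 and -0.58 against control.

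Signs turned for Cfl1 on TPM, to 0.35 in inhibition and 0.31 in spermidine against control at either pseudocount, with or without the filter. Pfn1 turned to 0.15 in spermidine against control on TPM. In spermidine against inhibition Actg1 turned to 0.0246 (pseudocount 0.1) and 0.0245 (pseudocount 1, with or without the filter) on TPM and Rac1 to 0.14 on TPM and 0.10 with total counts. Tmsb10, not called there, was -0.0110 with DESeq2, -0.0369 without the filter and -0.0412 to 0.0443 over the fits that left out 1 library. The cause was not tested. Same-numbered libraries showed no sign of pairing (residual correlations -0.08 to 0.09 over 9 pairs, none above 0.1). Low correlations cannot exclude a shared source, which the labels do not give. The replicate block called 5191 genes higher and 5188 lower in inhibition against control, 4129 and 4132 in spermidine against inhibition, and 5889 and 5320 in spermidine against control, with the same counts of members called.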
